A study of Rattus norvegicus with 9 samples.

Results

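PPAR-responsive lipid genes are described here in rat hippocampal RNA, as 10 genes: the receptors Ppara, Ppard, Rxra and Rxrg, and the lipid-handling genes Angptl4, Plin2, Fabp3, Vldlr, Cd36 and Acot1. They were taken by symbol from the platform annotation of the array and are carried by 16 probe sets that list a single gene, out of 20826 such probe sets for 14217 genes in all. Another 2 probe sets list a member together with a second gene (Cd36l1 with Cd36, and Acot2 with Acot1) and are given apart. The study set 3 control arrays, from hippocampal neurons kept in artificial cerebrospinal fluid alone, against 3 arrays after 1 h and 3 arrays after 6 h of ketone bodies. The labels name neither the ketone bodies nor their dose, give no exposure time for the control and no strain or age, and do not say whether replicates came from separate animals or cultures, so the p-values measure only the spread between these arrays.

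Peroxisome proliferator-activated receptors (PPARs) are nuclear receptors that bind fatty acids and their derivatives, pair with a retinoid X receptor (RXR) and switch on genes through a DNA element made of a pair of half-sites. PPAR alpha and PPAR delta are known for driving the uptake, binding, storage and burning of fatty acids, and PPAR delta is the form known to be widely expressed in brain. Among the targets, Angptl4 encodes a secreted inhibitor of lipoprotein lipase, Plin2 a coat protein of lipid droplets and Fabp3 a carrier of fatty acids inside the cell. Vldlr encodes a lipoprotein receptor that in brain also receives reelin, Cd36 a membrane receptor for fatty acids and Acot1 an enzyme that splits fatty acyl-CoA.

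The promoters of Angptl4, Plin2 and Rxrg, the 3 tested members whose groups did not overlap in more than 1 of the comparisons below, are shown with the letters that were searched for. RefSeq windows on the rat build GRCr8 were held for 9 of the 10 members, in 10 windows. Each window runs from 250 bases before the annotated start to 50 after it. The 250 bases before the start are printed for Angptl4 (chr7:15258682-15258931, minus strand), Plin2 (chr5:106229019-106229268, minus strand, the more upstream of its windows) and Rxrg (chr13:82276237-82276486, plus strand), 5' to 3' on the gene's strand, with capitals marking TATAAA.
Angptl4: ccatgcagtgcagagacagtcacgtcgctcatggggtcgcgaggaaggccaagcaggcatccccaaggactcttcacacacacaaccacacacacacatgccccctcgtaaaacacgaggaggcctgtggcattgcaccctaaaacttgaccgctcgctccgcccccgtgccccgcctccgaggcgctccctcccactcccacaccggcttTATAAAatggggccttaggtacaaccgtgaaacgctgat
Plin2: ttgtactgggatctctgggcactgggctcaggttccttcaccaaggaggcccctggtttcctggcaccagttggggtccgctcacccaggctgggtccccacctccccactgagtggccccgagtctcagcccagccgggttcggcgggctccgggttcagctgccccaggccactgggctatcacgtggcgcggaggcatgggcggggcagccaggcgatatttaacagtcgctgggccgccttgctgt
Rxrg: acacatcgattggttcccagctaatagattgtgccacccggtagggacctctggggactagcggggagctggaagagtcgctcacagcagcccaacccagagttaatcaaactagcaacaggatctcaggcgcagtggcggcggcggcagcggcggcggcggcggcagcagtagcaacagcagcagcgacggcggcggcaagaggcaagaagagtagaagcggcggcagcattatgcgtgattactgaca
The PPAR half-site AGGTCA, read on both strands, was found in 0 of the 10 member windows, and 16.2% of all 33469 RefSeq windows of the same length held it. The direct repeat of AGGTCA with 1 free base (N) between its arms, which contains that half-site in both of them, was in 0 member windows and in 0.0538% of all windows. With up to 2 mismatches it was again in 0 member windows, beside 3.77% of all. The letters TATAAA on the gene's strand, searched after the sequences had been seen, stood in Angptl4 alone of the member windows, 39 bases before the start, and in 8.8% of all windows. These are matches of letters in a short window and say nothing of elements outside it.

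Levels are given as quantile-normalized log2(signal + 16), called log2 levels, and a probe set was tested only where its mean over the 9 arrays reached the 40th percentile, a log2 level of 5.21 or a signal of about 21.0. Of the 16 member probe sets 11 passed, for 7 genes, and 5 lay under it. Ppara, Rxra and Cd36 had no tested probe set. Median log2 levels of the arrays before normalization ran from 5.67 to 5.88, arrays of 1 group correlated at 0.949 to 0.987 and arrays of different groups at 0.945 to 0.988. For beta-actin, one of the control transcripts with probe sets at both ends, the 3' signal over the 5' signal, in log2 units, serves as a measure of how short the labelled copies are. It averaged 1.35 ± 0.08 on control arrays (SD, n = 3), 1.84 ± 0.40 on 1 h arrays and 1.82 ± 0.77 on 6 h arrays (exact 2-sided permutation p = 0.2 and 0.4 against control, where 0.1 is the smallest possible). The same measure for Gapdh averaged 0.131 ± 0.111, 0.107 ± 0.0388 and 0.189 ± 0.233 (exact permutation p = 0.8 for both times against control). The arrays named as neurons also carried glia: all 4 measured oligodendrocyte markers and all 6 astrocyte markers were above the filter, with Mbp at a mean log2 level of 12.62 and Gfap at 10.96 in control. In such bulk RNA fewer cells of a type and less RNA per cell cannot be told apart.

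Across the family, Ppard, Angptl4, Plin2 and Fabp3 were higher than control after 1 h at an unadjusted p under 0.05, and Ppard and Angptl4 again after 6 h, while Rxrg was lower after 6 h. None of these passed the adjusted threshold of 0.05 by limma: 0 of 11 member probe sets did in each of the comparisons. At 1 h 8 of the 11 had a positive log2 change, as had 55.3% of the 18625 tested probe sets. At an unadjusted p under 0.05 lay 4 of the 11, all of them higher, in a comparison where 11.4% of all tested probe sets lay there (6.68% higher and 4.67% lower) and 0.0322% passed the adjusted threshold. At 6 h 7 of the 11 were positive (53.8% of all), and 3 lay at an unadjusted p under 0.05, 2 higher and 1 lower, against 4.25% of all (2.79% higher and 1.47% lower), with 0.0268% passing. Between 6 h and 1 h 5 of the 11 were positive (47.0% of all), and 2 lay at an unadjusted p under 0.05, both lower at 6 h, against 2.72% of all (1.31% higher and 1.41% lower), with 0.0% passing. Over the 3 groups together 4 of the 11 did, against 6.36% of all, with 0.0215% passing. Groups did not overlap for 4 of the 11 at 1 h, all higher, where 21.3% of all did not (13.0% higher and 8.26% lower). At 6 h it was 3 of the 11, 2 higher and 1 lower, against 9.2% of all (6.05% and 3.15%), and between 6 h and 1 h 3 of the 11, 1 higher and 2 lower, against 7.59% of all (3.55% and 4.04%). The median log2 change of the 11 probe sets was 0.13 at 1 h and 0.06 at 6 h, and that of all tested probe sets 0.03 and 0.01. These medians moved with the scaling: with the values as deposited the members' were 0.03 and -0.0061 and those of all -0.0079 and -0.0069, and 7 and 5 of the 11 were positive, beside 48.7% and 48.3% of all. With centring on array medians the members' were 0.14 and 0.07 and those of all 0.10 and 0.07, and 11 and 8 of the 11 were positive, beside 65.6% and 65.2% of all. The 1 h and 6 h comparisons share the 3 control arrays, so a high or low control value enters both. The 1 h count rested on single arrays: it was 1 without control 3 or without 1 h array 3, and 2 without control 1, control 2, 1 h array 1 or 1 h array 2. The count for 6 h against 1 h was 1 without control 1, 1 h array 1 or 2, or 6 h array 1 or 2.

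**Figure D1:**
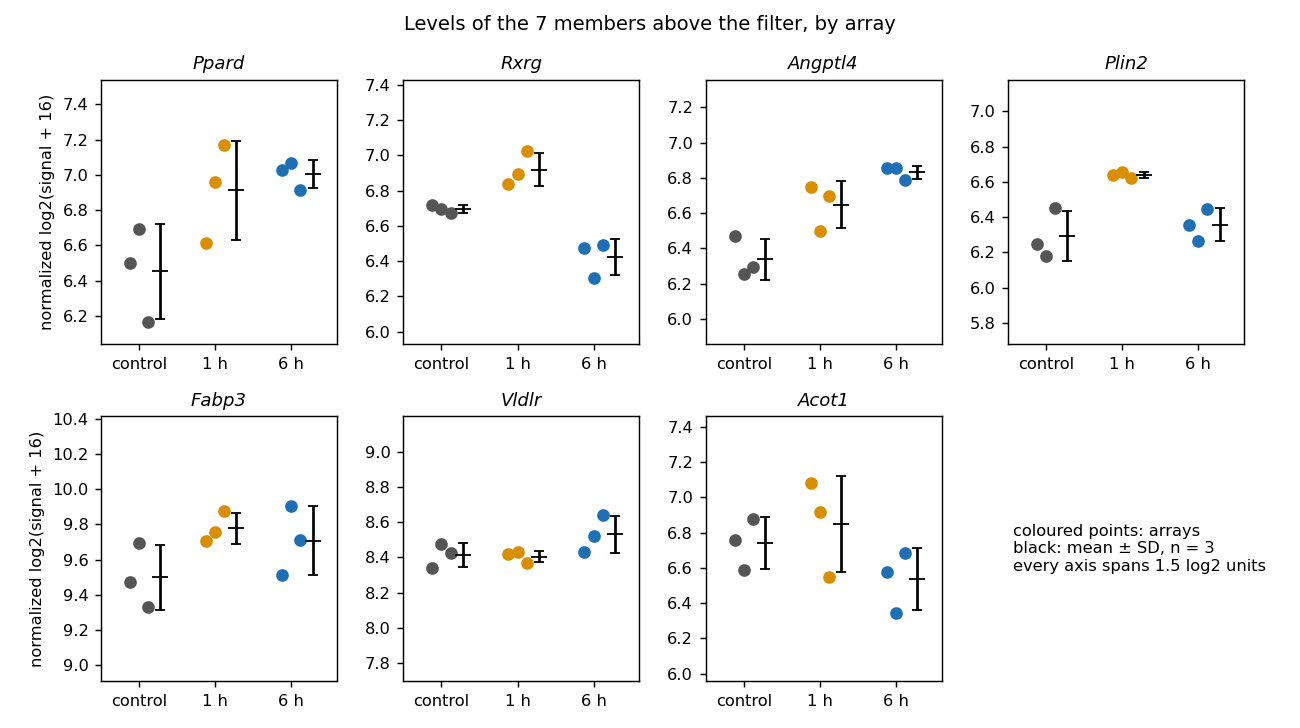
Log2 levels (normalized log2(signal + 16)) of the brightest probe set of the 7 tested members in control, 1 h and 6 h arrays. Points are single arrays, black marks the mean with its SD (n = 3), and every vertical axis spans the same 1.5 log2 units. Angptl4 lay higher at 1 h than in control and higher again at 6 h, without overlap, whereas Rxrg was highest at 1 h and lowest at 6 h.

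Among the receptors, Ppard, the PPAR with a wide tissue range, was the only tested PPAR. Its brightest probe set had log2 levels of 6.50, 6.70 and 6.16 in control, 6.61, 6.96 and 7.17 at 1 h, and 7.02, 7.07 and 6.91 at 6 h. All 6 h arrays lay above all controls, while 1 h array 1 fell inside the control range. The log2 change was 0.46 ± 0.18 (SE, n = 3 arrays per group throughout) at 1 h, a fold of 1.38 (limma, unadjusted p = 0.0259, adjusted p = 0.395). At 6 h it was 0.55 ± 0.18, a fold of 1.46 (unadjusted p = 0.0109, adjusted p = 0.987). From 1 h to 6 h it was 0.09 ± 0.18 with a 95% interval of -0.30 to 0.48, so those neighbours in the order of levels did not differ beyond their spread. The 1 h change ran down to 0.29 with array weights and was 0.32 without control 3, the lowest control array. The other Ppard probe set was dim, with signals of 10.8, 11.6 and 17.5 in control, 12.7, 15.7 and 5.36 at 1 h, and 9.54, 8.28 and 7.09 at 6 h. Its 6 h signals lay below the controls, the other way from the brighter probe set, but after normalization the 6 h log2 levels of 4.49 to 4.8 overlapped the control values of 4.77, 4.72 and 5.01.

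Rxrg, one of the RXR partners and a form known from striatum and pituitary more than from hippocampus, showed opposite displacements at the 2 times. Its log2 levels were 6.72, 6.70 and 6.67 in control, 6.84, 6.89 and 7.02 at 1 h, and 6.48, 6.30 and 6.49 at 6 h. Every 1 h array lay above every control and every 6 h array below, so no values of any 2 groups overlapped. The change was 0.22 ± 0.11 at 1 h (95% interval -0.03 to 0.48, unadjusted p = 0.0805, adjusted p = 0.484 by limma). At 6 h it was -0.27 ± 0.11, a fold of 0.828 (unadjusted p = 0.0391, adjusted p = 0.987). This drop from control kept its sign in all 21 alternative settings, but stayed at an unadjusted p under 0.05 in only 11 of them. The direct comparison of 6 h with 1 h gave -0.50 ± 0.11, a fold of 0.71 (unadjusted p = 0.0015, adjusted p = 0.996). That difference kept its sign and an unadjusted p under 0.05 in all 21 alternative settings, from -0.58 to -0.34. Between 6 h and 1 h Rxrg and Plin2 were the 2 tested member probe sets that lay lower without overlap, as did 4.04% of all tested probe sets. A second Rxrg probe set, under the filter, did not show the pattern: its log2 levels were 4.65, 4.91 and 4.77 in control, 4.88, 4.15 and 4.88 at 1 h, and 4.90, 4.83 and 4.65 at 6 h.

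Ppara, the fatty acid receptor of liver and heart, was close to the lowest signals of the array. Rxra, the most widespread RXR, was under the filter, with its mean at percentile 22.8 of all probe sets. Neither gives a comparison. Ppara had log2 levels of 4.11, 4.08 and 4.11 in control, 4.17, 4.12 and 4.20 at 1 h, and 4.07, 4.18 and 4.06 at 6 h, which are deposited signals of 0.595 to 2.39. Its mean lay at percentile 1.8 of all probe sets. Rxra had log2 levels of 4.31, 4.72 and 4.30 in control, 4.48, 5.35 and 4.71 at 1 h, and 4.24, 4.39 and 4.77 at 6 h, and only 1 h array 2, with a signal of 23.2, rose above the filter's level. A dim probe set may miss the transcript made here, so these values do not show that the receptors were absent.

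Angptl4, the secreted lipase inhibitor, was higher at both times, and most so at 6 h. Its log2 levels were 6.47, 6.25 and 6.29 in control, 6.75, 6.50 and 6.70 at 1 h, and 6.85, 6.85 and 6.79 at 6 h. Each step separated completely: the lowest 1 h array was above the highest control, and the lowest 6 h array above the highest 1 h array. The change was 0.31 ± 0.12 at 1 h, a fold of 1.24 (unadjusted p = 0.0299, adjusted p = 0.401 by limma). After 6 h it reached 0.49 ± 0.12, a fold of 1.41 (unadjusted p = 0.00235, adjusted p = 0.601), the lowest adjusted p of any member at that time. From 1 h to 6 h the change was 0.18 ± 0.12 with a 95% interval of -0.09 to 0.46 (adjusted p = 0.996), so the second step was not larger than the spread despite the separated values. The 6 h change kept an unadjusted p under 0.05 in all 21 alternative settings, between 0.33 and 0.59. At 1 h 15 of the 21 did so, with 0.20 as the lowest change, under a pseudocount of 64. Ppard and Angptl4 were the 2 of 11 single-gene member probe sets higher than control without overlap at 6 h, as were 6.05% of all tested probe sets.

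Plin2, which coats lipid droplets, was higher at 1 h alone in its brighter probe set. Log2 levels were 6.25, 6.18 and 6.45 in control, 6.64, 6.65 and 6.62 at 1 h, and 6.36, 6.26 and 6.45 at 6 h. The 1 h arrays lay close together above all others, and the 6 h arrays overlapped the controls. The change was 0.35 ± 0.12 at 1 h, a fold of 1.27 (unadjusted p = 0.0176, adjusted p = 0.381 by limma), the lowest adjusted p of the members there. At 6 h it was 0.06 ± 0.12, with a 95% interval of -0.21 to 0.34, and its sign turned with the values as deposited (-0.0061). The direct comparison of 6 h with 1 h gave -0.28 ± 0.12 (unadjusted p = 0.0432, adjusted p = 0.996), which stayed at an unadjusted p under 0.05 in 8 of 20 alternative settings. The other Plin2 probe set had log2 levels of 5.94, 6.27 and 5.53 in control, 5.74, 6.09 and 6.31 at 1 h, and 6.43, 5.97 and 5.37 at 6 h. Its groups overlapped throughout, with a change of 0.13 ± 0.28 at 1 h and an interval of -0.50 to 0.76 that takes in the value of the brighter one.

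Fabp3, a cytosolic carrier of fatty acids, had log2 levels of 9.48, 9.70 and 9.33 in control, 9.70, 9.75 and 9.87 at 1 h, and 9.51, 9.90 and 9.71 at 6 h. The 1 h arrays lay just above the controls, with 1 h array 1 and control 2 nearly equal, while the 6 h arrays overlapped both groups. The change was 0.28 ± 0.12 at 1 h (unadjusted p = 0.0486, adjusted p = 0.437 by limma) and 0.21 ± 0.12 at 6 h (adjusted p = 0.987). Between the times it was -0.07 ± 0.12, with an interval of -0.35 to 0.21. The 1 h change stayed at an unadjusted p under 0.05 in only 11 of 21 alternative settings, and was 0.19 without control 3. With Rxrg, Angptl4 and Plin2, Fabp3 made 4 of 11 member probe sets that were higher than control without overlap at 1 h, as were 13.0% of all tested probe sets.

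Vldlr, the lipoprotein and reelin receptor, was measured by 4 tested probe sets with no group apart from another. The brightest had log2 levels of 8.34, 8.47 and 8.43 in control, 8.42, 8.43 and 8.37 at 1 h, and 8.43, 8.52 and 8.64 at 6 h, with overlap between all groups. Its change was -0.01 ± 0.10 at 1 h (95% interval -0.22 to 0.20) and 0.12 ± 0.10 at 6 h (-0.10 to 0.33). The other 3 probe sets had changes between -0.07 and 0.03 at 1 h and between -0.05 and 0.13 at 6 h, and at 6 h 2 of the 4 were positive. The signs of the 1 h changes of all 4 turned in some alternative settings, centring on array medians among them for the 3 that were negative. The bounds of the 95% intervals against control over the 4 probe sets all lay between -0.36 and 0.41.

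Acot1, the acyl-CoA thioesterase, had its lowest mean at 6 h. Its log2 levels were 6.76, 6.59 and 6.88 in control, 7.08, 6.92 and 6.55 at 1 h, and 6.58, 6.34 and 6.69 at 6 h. The groups overlapped, 1 h array 3 being below all controls and the other two 1 h arrays above. The change was 0.11 ± 0.17 at 1 h and -0.21 ± 0.17 at 6 h, and -0.31 ± 0.17 between the times (95% interval -0.68 to 0.05, unadjusted p = 0.0858, adjusted p = 0.996 by limma). Without 1 h array 3 the 1 h change was 0.26 and the difference between the times -0.46, and without 1 h array 1 the 1 h change was -0.0065. The probe set listed with both Acot2 and Acot1 had changes of 0.01 ± 0.19 at 1 h and 0.21 ± 0.19 at 6 h. It therefore had the other sign at 6 h, and the signals of the 2 genes cannot be told apart in it. Its 6 h arrays lay above all controls by a narrow margin, the lowest at a log2 level of 5.486 and the highest control at 5.484.

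**Figure D2:**
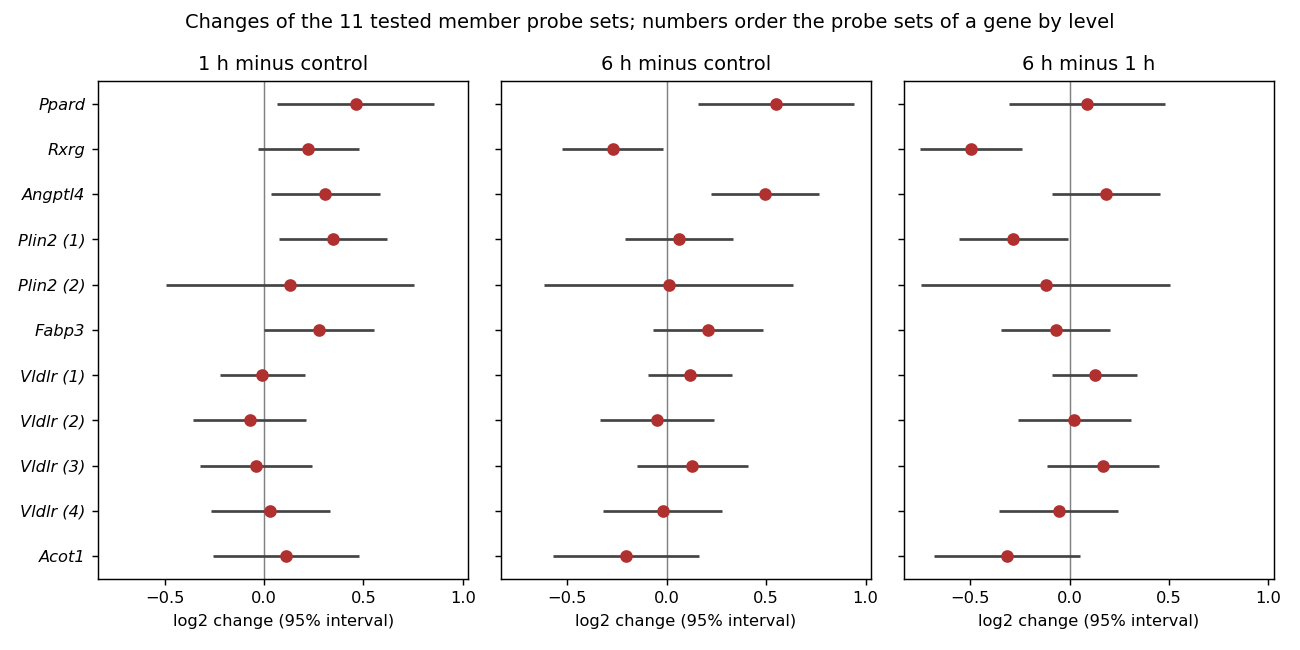
Log2 change with its 95% interval for the 11 tested member probe sets in the 3 comparisons, from the fit over all probe sets. At 1 h the intervals of Ppard, Angptl4, Plin2 (1) and Fabp3 lie above 0. At 6 h against control those of Ppard and Angptl4 lie above 0 and that of Rxrg below it. For 6 h minus 1 h those of Rxrg and Plin2 (1) lie below 0. None passed the adjusted threshold.

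Cd36, the fatty acid receptor of endothelium, macrophages and adipocytes, was dim in every array. Its deposited signals were 9.49, 11.3 and 8.39 in control, 12.1, 6.94 and 9.51 at 1 h, and 0.281, 1.09 and 6.12 at 6 h. All 6 h arrays lay below all others, with log2 levels of 4.03, 4.08 and 4.43 against 4.56 to 4.71 in control, but signals this low were not tested. The probe set listed with both Cd36l1 and Cd36 lay just above the filter and had changes of 0.07 ± 0.17 at 1 h and 0.05 ± 0.17 at 6 h.

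**Figure D3:**
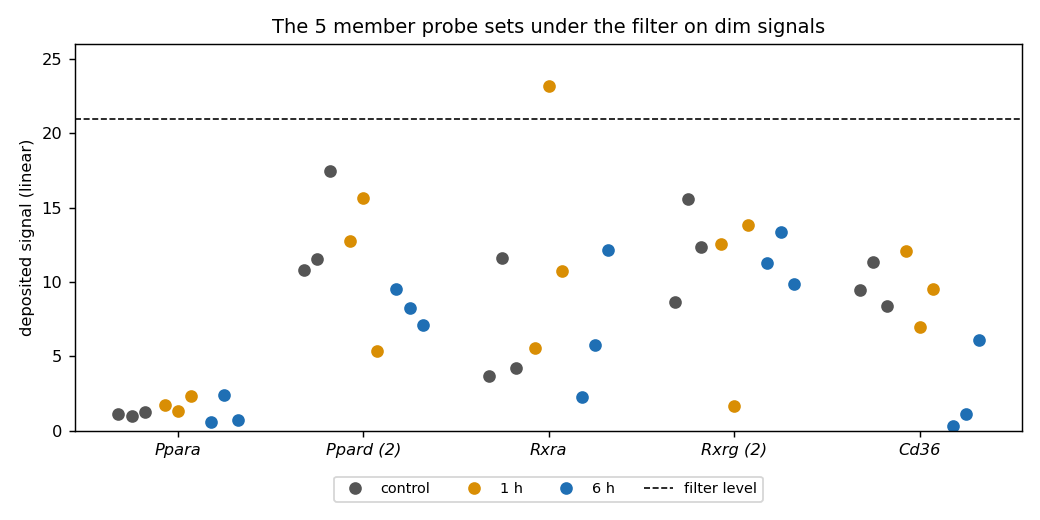
Deposited linear signal of the 5 member probe sets under the filter, by array and group, with the filter level of about 21.0 as a dashed line. Ppara lies between 0.595 and 2.39 in every array, and 1 Rxra array at 1 h is the only point above the line.

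The genes around the members were read from lists of their pathway, each gene by its brightest tested probe set. Of receptor partners and coregulators, which pass the receptor's signal to transcription, 15 of 20 were tested. At 1 h 5 had a positive and 10 a negative log2 change (median -0.10), and the same counts held at 6 h (median -0.03). Of all tested probe sets 55.3% and 53.8% were positive. With the values as deposited 4 and 5 of the 15 were positive, and with centring on array medians 7 and 7. At an unadjusted p under 0.05 lay 3 of 15 at 1 h, all lower, as did 4.67% of all, and 0 at 6 h. The acetyltransferase Ep300 had -0.57 ± 0.17 at 1 h and 0.02 ± 0.17 at 6 h, and the mediator subunit Med1 -0.45 ± 0.18 and -0.13 ± 0.18 (lowest adjusted p = 0.335 by limma). Pparg, the adipocyte form of PPAR, was under the filter. Of the genes for uptake and binding of lipids 18 of 24 were tested, with 6 positive and 12 negative at 1 h (median -0.04) and 10 positive and 8 negative at 6 h (median 0.04). Its median turned to 0.07 at 1 h with centring on array medians and to -0.0039 at 6 h with the values as deposited. Dbi, the acyl-CoA binding protein, had 0.26 ± 0.11 at 1 h and 0.18 ± 0.11 at 6 h, and the acyl-CoA synthetase Acsl4 -0.19 ± 0.09 and -0.07 ± 0.09. Neither list had a gene that passed.

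Of lipid droplet, storage and lipolysis genes 16 of 21 tested had a positive log2 change at 1 h (median 0.12) and 15 of 21 at 6 h (median 0.08), beside 55.3% and 53.8% of all tested probe sets. Dgat1, the last enzyme of triglyceride synthesis, had log2 levels of 7.40, 7.35 and 7.27 in control, 7.67, 7.76 and 7.55 at 1 h, and 7.50, 7.66 and 7.65 at 6 h. Its values at both times lay above all controls, with changes of 0.32 ± 0.11 and 0.27 ± 0.11 (adjusted p = 0.378 and 0.987 by limma). The thioesterase Acot13 had 0.33 ± 0.12 at 1 h and 0.15 ± 0.12 at 6 h. Of the oxidation genes with Pdk4, 14 of 15 tested were positive at 1 h (median 0.11) and 13 of 15 at 6 h (median 0.08). Pdk4, which restrains pyruvate oxidation, had log2 levels of 5.80, 5.92 and 5.54 in control, 6.04, 6.34 and 6.25 at 1 h, and 6.50, 6.49 and 6.54 at 6 h. It separated at each step as Angptl4 did, with a change of 0.76 ± 0.14 at 6 h (adjusted p = 0.236). Cpt2, of the mitochondrial carnitine system, had 0.47 ± 0.14 and 0.27 ± 0.14 (adjusted p = 0.335 at 1 h). In these lists 0 genes passed by limma. At an unadjusted p under 0.05 lay 2 of 21 droplet genes and 3 of 15 oxidation genes at 1 h, where 11.4% of all tested probe sets did, and 2 of 21 and 1 of 15 at 6 h, where 4.25% did, all with positive changes.

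Genes that answer to hypoxia and to glucocorticoids were read as well, since Angptl4 is known to respond to both. Of 13 tested hypoxia-responsive genes 12 were positive at 1 h (median 0.15) and at 6 h (median 0.11), with 0 at an unadjusted p under 0.05. Of all tested probe sets 55.3% and 53.8% were positive, and 11.4% and 4.25% lay at an unadjusted p under 0.05. The mitophagy receptor Bnip3 had 0.12 ± 0.06 at 1 h and 0.02 ± 0.06 at 6 h, and Ankrd37 0.30 ± 0.15 and 0.11 ± 0.15. Of 11 tested glucocorticoid-responsive genes 5 were positive at 1 h (median -0.07, which turned to 0.06 with centring on array medians) and 6 at 6 h (median 0.08). At an unadjusted p under 0.05 lay 1 higher and 1 lower at 1 h, where 11.4% of all tested probe sets did. At 6 h it was 2 higher and 3 lower, where 4.25% of all did, and 0 passed the adjusted threshold at either time. The NF-kB inhibitor Nfkbia had 0.58 ± 0.15 and 0.71 ± 0.15, and the phosphatase Dusp1 -0.27 ± 0.09 and -0.36 ± 0.09 (lowest adjusted p = 0.318). The part of either signal in the Angptl4 change was not tested.

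**Figure D4:**
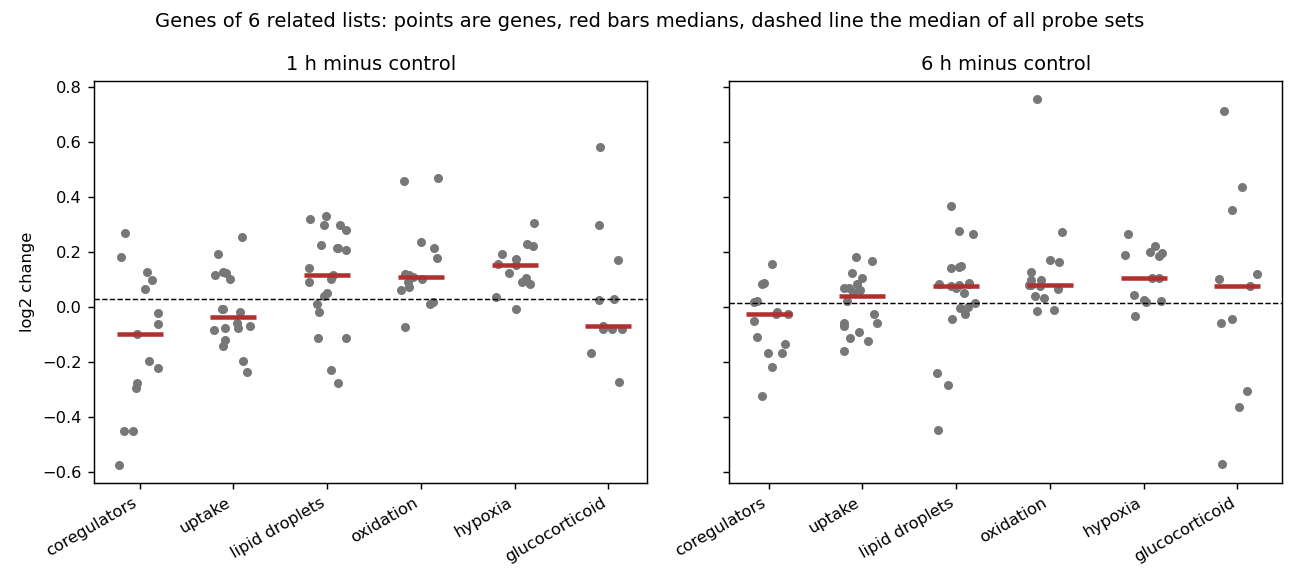
Log2 change against control of each tested gene in 6 related lists at 1 h and at 6 h (points), with list medians as red bars and the median over all tested probe sets, 0.03 and 0.01, as a dashed line. The droplet, oxidation and hypoxia lists have medians between 0.08 and 0.15 and the coregulator list a median of -0.10 at 1 h; the highest points at 6 h are Pdk4 at 0.76 and Nfkbia at 0.71.

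The expression patterns most like those of Angptl4 and Rxrg were found by the mean absolute difference of log2 levels over the 9 arrays, each centred on its own mean, among 14449 other single-gene probe sets. For Angptl4 they were the helicase Ddx59 (0.0597), the kinase Dyrk3 (0.0607) and the transcription factor Egr2 (0.0615), where the median over all probe sets compared was 0.225. For Rxrg they were the lipid kinase subunit Pik3ca (0.0659), the DNA repair gene Ddb2 (0.0702) and the cytokine subunit Il12a (0.0729), beside a median of 0.22. Of the members, Fabp3 came nearest to Angptl4 at rank 1162, whereas Rxrg and Acot1 lay far from it at ranks 12228 and 12241. Plin2 and Acot1 came nearest to Rxrg at ranks 447 and 514, whereas Ppard and Angptl4 lay far from it at ranks 12564 and 12584. These nearest members were still farther than the genes named above, Fabp3 at 0.157 from Angptl4 and Plin2 and Acot1 at 0.142 and 0.144 from Rxrg. Probe sets that change little also score as near: Vldlr, with no group apart, came at rank 2358 from Angptl4. The ranks therefore do not show which members share a pattern.

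Some markers of several cell types differed on the same arrays as the 1 h changes, and none of those named here passed the adjusted threshold. The mean log2 level of 6 neuron markers was 10.93 to 11.07 on the control arrays, 10.69 to 10.83 at 1 h and 10.62 to 10.94 at 6 h. That of 5 tested microglia and macrophage markers was 6.88 to 7.02 in control, 7.10 to 7.17 at 1 h and 6.91 to 7.09 at 6 h, with 3 of 5 positive at 1 h. Aif1, a calcium-binding protein of microglia, had 0.75 ± 0.17 at 1 h (adjusted p = 0.299 by limma), and the complement gene C1qa 0.30 ± 0.11 (adjusted p = 0.393), both higher than control without overlap. Of all tested probe sets 13.0% lay higher than control without overlap at 1 h and 8.26% lower. Cx3cr1 went the other way at 1 h (-0.39 ± 0.21), Csf1r had -0.01 ± 0.18 and Itgam 0.27 ± 0.20, each overlapping control. Cd68 and Ptprc were under the filter, so the microglia markers did not move together. The 2 tested red cell markers had means of 9.07 to 9.35 in control, 9.44 to 9.55 at 1 h and 9.37 to 9.62 at 6 h. At 1 h the means of these 3 lists thus lay outside the control range on every array, as Angptl4, Plin2, Fabp3 and Rxrg did. All 6 neuron markers had negative changes at 1 h, but only Rbfox3 was without overlap (-0.17 ± 0.11). Of the red cell markers Hbb was without overlap (0.39 ± 0.12), while Alas2 overlapped control (0.18 ± 0.16). The part of these lists in the members' changes was not tested. Of 2 tested choroid plexus markers, whose mean was 9.19 to 9.42 in control, 9.14 to 9.24 at 1 h and 9.25 to 9.43 at 6 h, the transthyretin gene Ttr lay lower at 1 h without overlap (-0.21 ± 0.06, adjusted p = 0.317) and had -0.02 ± 0.06 at 6 h; its part in the members' changes was not tested either. The mean of 6 tested endothelial markers overlapped between the groups (6.76 to 6.99 in control, 6.78 to 7.05 at 1 h and 6.82 to 7.19 at 6 h), with 6 of 6 positive at 1 h. The astrocyte mean overlapped control at 1 h as well (9.99 to 10.20 in control and 10.11 to 10.21 at 1 h). So did the oligodendrocyte mean (11.32 to 11.43 and 11.27 to 11.43). The mean of pericyte and smooth muscle markers did likewise (6.31 to 6.42 and 6.17 to 6.41). All 4 adipocyte markers, Adipoq, Lep, Plin1 and Cfd, were under the filter.

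**Figure D5:**
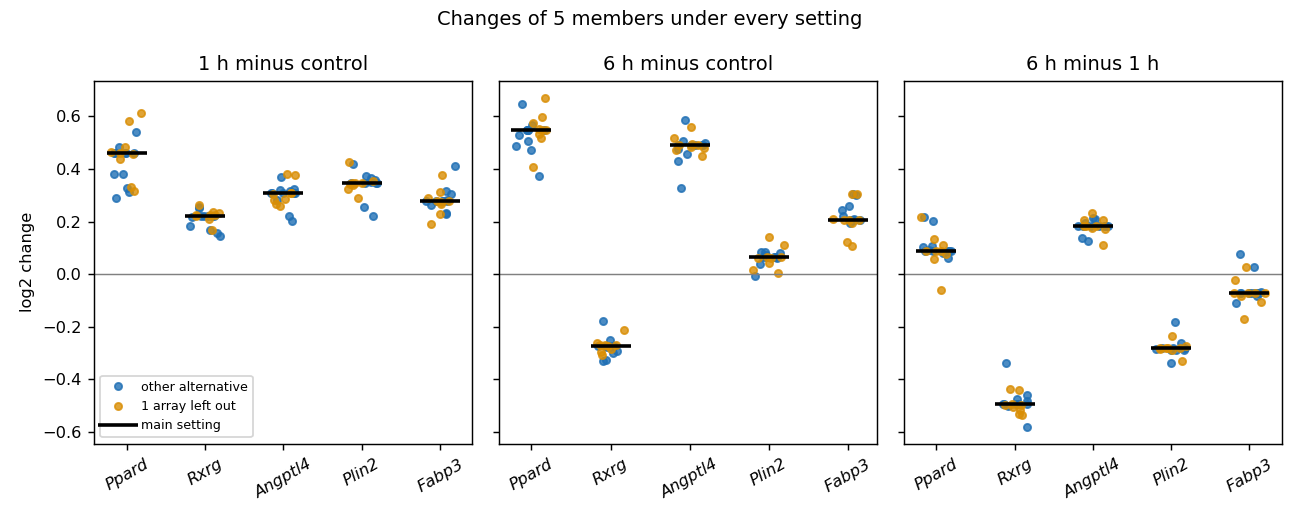
Log2 change of the brightest probe set of Ppard, Rxrg, Angptl4, Plin2 and Fabp3 under the main setting (black bars), with 1 array left out (orange) and under the other alternatives (blue). Angptl4 at 6 h stays between 0.33 and 0.59 and Rxrg for 6 h minus 1 h between -0.58 and -0.34, while Plin2 at 6 h, and Ppard and Fabp3 for 6 h minus 1 h, cross 0.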

How the data were processed

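Rat hippocampal RNA was measured on 9 arrays in 3 groups of 3. Values are the deposited linear signal intensities of 31099 probe sets, all positive; the software behind them is not given in the sources used here, and the linear scale was read from the values. Signals were taken as log2(signal + 16), quantile normalized and tested with limma 3.58.1 in R 4.3.3. The fit had 1 coefficient per group, 6 residual degrees of freedom, variances moderated with an intensity trend and Benjamini-Hochberg adjustment over all 18625 probe sets kept, at 0.05. Left out were 57 control probe sets and those with a mean under the 40th percentile. Intervals are 95% intervals of the moderated fit. Probe sets were named by the array's platform annotation and looked up by Entrez number (20758 matched, 68 did not, 0 changed). The code was tested on simulated data. Quantile normalization forces equal distributions, so a shift of most genes would be hidden.

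The members, lists and tests were chosen with earlier results of these data known. Per-array values are given for each member's brightest probe set, for others where they help compare probe sets (chosen after their values were seen), and for Dgat1 and Pdk4, likewise. From each pathway list the 2 genes with the smallest p over the 3 groups are named. Pparg and the markers Aif1, C1qa, Cx3cr1, Csf1r, Itgam, Cd68, Ptprc, Rbfox3, Hbb, Alas2, Ttr, Mbp and Gfap were added after their values were seen. Alternatives were the values as deposited, median centring, pseudocounts 1 and 64, no filter or the 60th percentile, no trend, array weights, a replicate block, the compared groups only and leaving out each array; a 3'/5' covariate and leaving out 2 arrays were added after seeing the data. Figures were drawn with matplotlib 3.10.9. The number of arrays limits the precision.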

Additional observations from a re-analysis of the deposited data

How the results depend on the processing

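No member passed the adjusted threshold in any setting run, and the counts below are small. Probe sets passing at 1 h against control, 6 in the values reported, numbered 3 with no filter, 25 with array weights, 0 with the 3'/5' covariate, 0 without the 2 arrays farthest on the first component (1 h array 3 and 6 h array 1), and 0 to 10 with 1 array left out. At 6 h, 5 became 2 with the values as deposited or no filter, and 1 with median centring, with only the compared groups, with the covariate, without those 2 arrays and with any 1 array left out. Over the 3 groups together, 4 became 24 with array weights, 1 with the covariate or without those 2 arrays, and 1 to 5 with 1 array left out. Member probe sets at an unadjusted p under 0.05 at 1 h, 4 as reported, were 2 with the values as deposited, the 60th percentile filter or the covariate, 1 without those 2 arrays and 1 to 4 with 1 left out. At 6 h, 3 as reported, they were 2 to 4 with 1 left out. For 6 h against 1 h, 2 as reported, they were 1 with the values as deposited, median centring, the 60th percentile filter or only the compared groups, and 1 to 2 with 1 left out. Over the 3 groups they were 2 to 5, against 4.

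With the replicate number as a block, 2 probe sets passed at 1 h, 1 at 6 h and 1 over the 3 groups, and 1 member lay at an unadjusted p under 0.05 for 6 h against 1 h. Deviations from the group means correlated at -0.36 to 0.54 between same-numbered arrays and at -0.43 to 0.53 between differently numbered ones. As these ranges were similar, the numbers were not taken as pairs. The causes of these differences were not tested. The comparison of member protein sequences was not run. Signal over background limits Ppara, Rxra and Cd36, whose probe sets lay under the filter.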
